A study of Homo sapiens with 8 samples.

Results

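The RNA of 43 genes that code for regulators of pre-mRNA splicing was described in 8 libraries of CTCFAID2 SEM cells. The genes were taken by name: 13 SR proteins and SR-like proteins, 22 heterogeneous nuclear ribonucleoproteins (hnRNPs) with the polypyrimidine tract-binding proteins PTBP1 and PTBP3, 3 muscleblind-like (MBNL) and 2 CELF proteins, and RBM5, RBM6 and RBM10. Each name matched 1 of the 60754 genes and spike-in sequences listed, and all 43 passed the filter of 1 TPM and were tested (TPM, the unit of the files, is the length-corrected share of RNA that a gene takes in its library). SEM cells are a human line from a B-cell precursor leukemia with a rearranged *KMT2A* gene, and in CTCFAID2 cells both alleles of *CTCF* carry the miniAID-mClover3 tag at their 3′ end. The cells also express a mutant of the plant F-box protein OsTIR1 from a lentivirus with Zeocin resistance, so that the auxin analog 5-Ph-IAA leads to degradation of the tagged CTCF. C17.2 and C3.2 are each a single clone of such cells, each with 2 libraries of untreated parental cells and 2 libraries of resistant cells, which had grown for 36 days in 1 μM 5-Ph-IAA with 100 μg/ml Zeocin and then for 48 h without treatment. By the study's account, resistant cells of C17.2 gained a truncated CTCF that lacks the tag and those of C3.2 kept full-length CTCF with a mutated tag. In its immunoblots, resistant C17.2 cells after washout again held the tagged CTCF beside the truncated form. The library numbers of the 2 clones lie in separate ranges, so that clone and a possible batch cannot be told apart. The sources do not say whether the libraries of a group came from separate cultures, and p-values measure only the spread between these samples.

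SR proteins bind exonic sequences through RNA recognition motifs, and their arginine- and serine-rich domains help to recruit U1 snRNP and U2AF to nearby splice sites. hnRNPs coat nascent RNA and often act in the opposite sense, as silencers of exons or splice sites, although the outcome depends on where they bind. MBNL and CELF proteins are known as antagonists in the choice of developmentally regulated exons, and RBM5, RBM6 and RBM10 act on the recognition of exons by the early spliceosome. Many of these genes limit their own RNA by including an exon that leads to nonsense-mediated decay. Gene-level TPM shows the summed RNA of a gene and neither its splicing nor its protein.

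Libraries were put on a common scale by a trimmed mean of log2 ratios with factors between 0.893 and 1.16, and all levels below are TPM divided by these factors. TPM holds no depth, so that the counting error of a value is unknown. Protein-coding genes took 36.0% to 43.3% of a library and small nuclear RNAs 31.2% to 37.6%, and within each group Pearson's r between the 2 libraries was 0.968 to 0.979 over all genes tested (genes are not independent replicates). The lowest protein-coding share was that of resistant replicate 2 of C3.2, in which the 43 genes summed to 5965 TPM, against 6419.5 TPM in its partner and 6918 and 6796 TPM in the parental libraries. Of 10 markers of B-cell precursor leukemia, 8 were expressed, among them *PAX5* and the *KMT2A*-fusion targets *HOXA9* and *MEIS1*, whereas *DNTT* and *RAG1* stayed under 1 TPM in every library. Of these 8, 3 fell in resistant cells of C17.2, and 4 fell and 1 rose in those of C3.2, and *IGLL1*, a surrogate light chain gene, had the largest falls, -2.16 on the log2 scale in C17.2 and -2.35 on the log2 scale in C3.2 (adjusted p = 2.27e-05 and 0.000121, limma, Benjamini-Hochberg). The part of this in the results below was not tested. The 14 markers of other blood cells summed to 2.08 to 4.16 TPM per library, with *CD3D*, *PPBP* and *PF4* at 0.

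*HNRNPA1*, an hnRNP that binds UAGG-like motifs, had the highest level in every group, with means of 1071 and 958 TPM in parental and resistant cells of C17.2 and 1285 and 886 TPM in those of C3.2. It was followed by *HNRNPH1*, *HNRNPC* and *HNRNPK*, whose means over all libraries were 454, 426 and 323 TPM, and then by *MBNL1* at 268 TPM. Among SR proteins *SRSF1* was highest (176 TPM) and *SRSF8*, a relative of *SRSF2*, was lowest (14.7 TPM). *MBNL2* had the lowest level of all, with group means between 3.62 and 4.31 TPM.

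**Figure D1:**
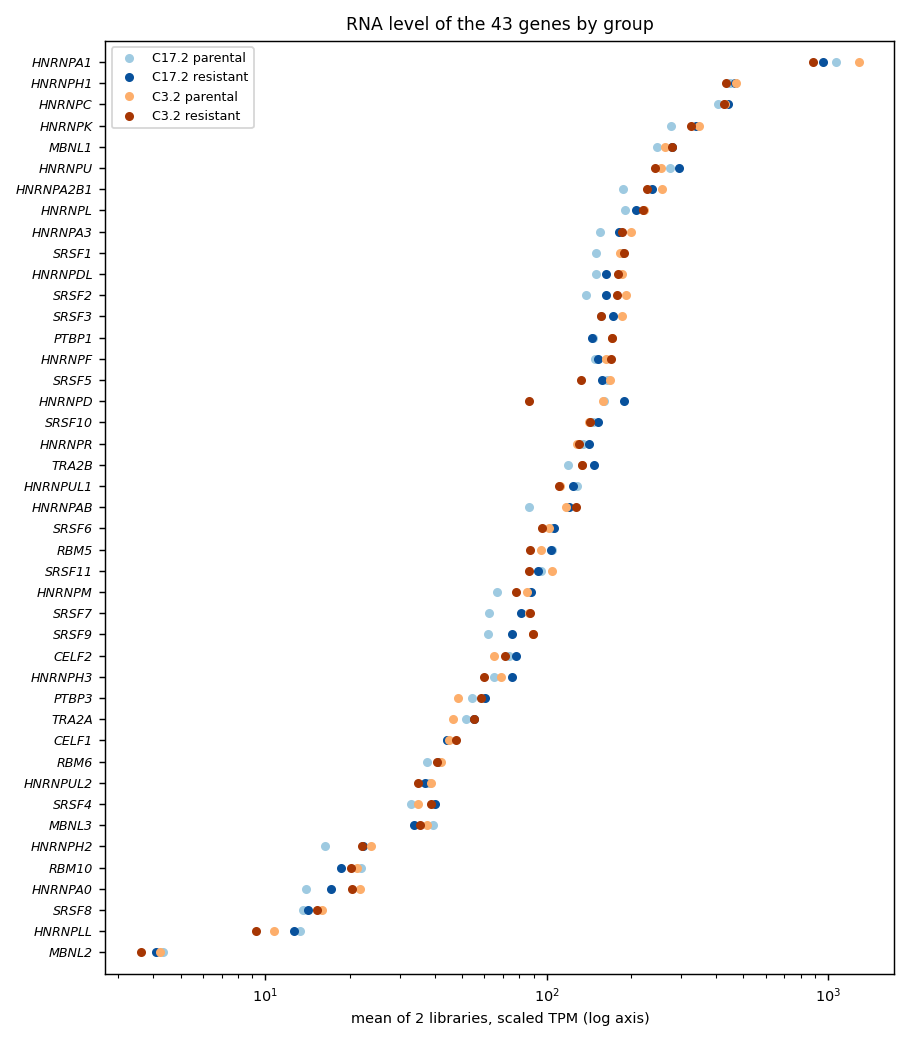
Mean level of the 43 genes in each of the 4 groups (scaled TPM, log axis, mean of 2 libraries per point), ordered by the mean over all libraries. HNRNPA1 stood highest and MBNL2 lowest in every group, and the point of HNRNPD for C3.2 resistant cells lay apart from its other points.

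In C17.2, 14 of the 43 genes were higher and 2 were lower in resistant than in parental cells, and 27 did not pass the threshold (limma with Benjamini-Hochberg adjustment over 15614 genes, adjusted p under 0.05). The genes that rose were SR proteins and hnRNPs, apart from *MBNL1*, and the genes that fell were *MBNL3* and *RBM10*. Of all genes tested in C17.2, 27.3% passed the threshold, with 13.4% higher and 13.9% lower. The 32.6% of the 43 genes that rose stood above the share of all genes and the 4.65% that fell stood below it. The share of all genes was not matched for level, here and below. Each of the 43 genes had a mean over all libraries of at least 4.06 TPM, while genes with 1 TPM in a single library were also tested. The median log2 fold change of the 43 genes was 0.11, against 0.00 for all genes. In bulk RNA, fewer cells of a type and less RNA per cell cannot be told apart. The split of higher and lower genes depended on the scaling, and no called gene changed direction. It was 23 higher and 0 lower on TPM as deposited and 21 higher and 0 lower on TPM rescaled over protein-coding genes. On these 2 scalings the median log2 fold change of all genes was 0.13 and 0.069, and the share of all genes called was not taken. With 1 library of the clone left out, 8 to 11 genes passed.

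In C3.2, 2 of the 43 genes were higher and 3 were lower in resistant cells, and 38 did not pass. Of all genes tested, 11.4% passed in this clone, with 4.46% higher and 6.9% lower, and the shares of the 43 genes, at 11.6%, 4.65% and 6.98%, were close to these. The median log2 fold change was -0.065 and turned to 0.038 under quantile normalization and to 0.032 on TPM rescaled over protein-coding genes, where the counts became 6 higher and 2 lower. None of the 43 genes passed in both clones, 21 passed in at least 1 and 22 in neither. How many of all genes tested did so was not counted. At an unadjusted limma p under 0.05, 4 of the 43 passed in both clones. Of these, *HNRNPAB* and *PTBP3* were higher in resistant cells of both clones. *SRSF2* and *HNRNPH3* were higher in those of C17.2 and lower in those of C3.2. The share of all genes at an unadjusted p was not taken, here or for the unadjusted counts below. None of the 5 calls in C3.2 held under every alternative, and all 5 were lost when the 4 libraries of the clone were fitted alone or when either parental library was left out. Without resistant replicate 2, the library with the lowest sum of these genes, 0 were higher and 2 were lower, and without resistant replicate 1 it was 2 and 7.

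**Figure D2:**
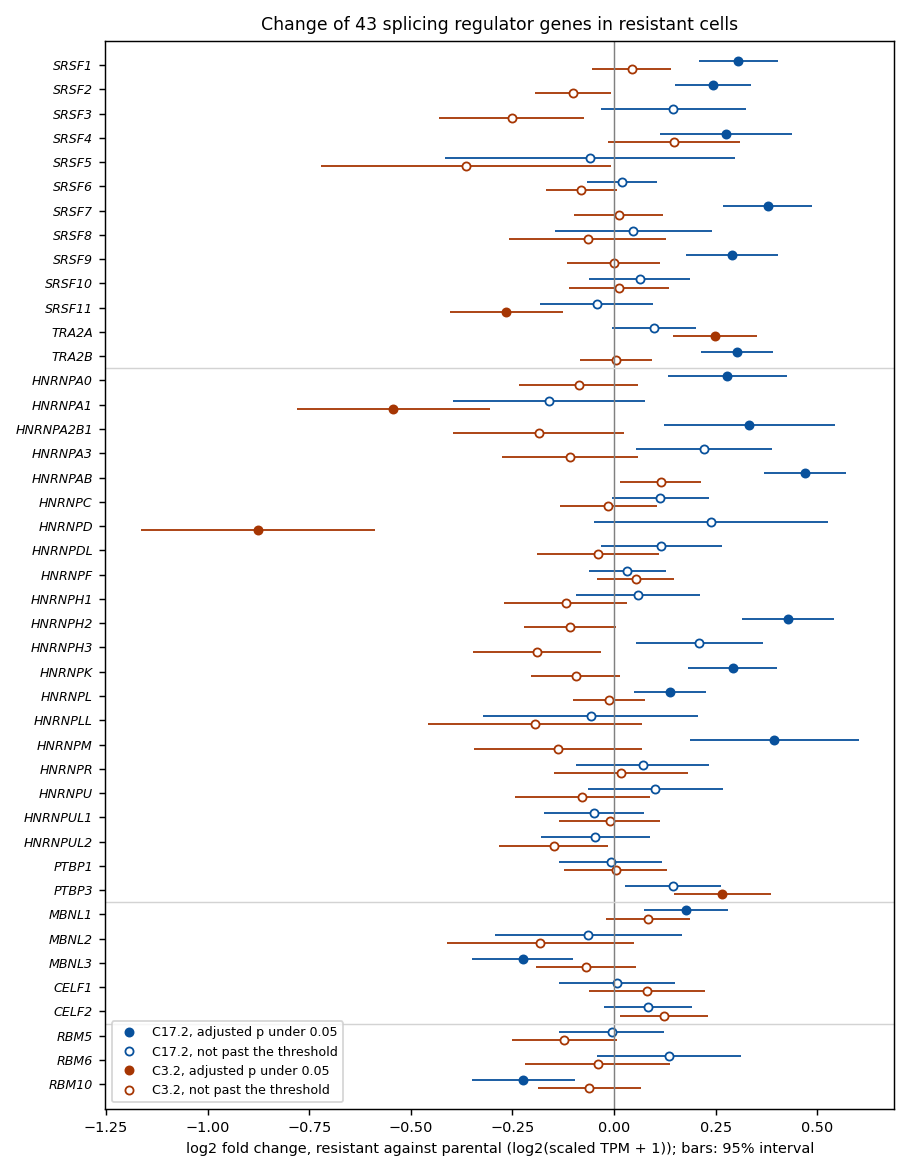
Log2 fold change of resistant against parental cells for each of the 43 genes (x axis, on log2(scaled TPM + 1)), with 95% intervals from limma, in C17.2 (blue) and C3.2 (brown). Filled points had an adjusted p under 0.05 (16 in C17.2, 5 in C3.2), and gray lines separate SR proteins, hnRNPs, MBNL and CELF proteins, and RBM proteins.

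Of the 13 SR and SR-like proteins, 6 rose in C17.2 and none fell (6 and 0 at an unadjusted limma p under 0.05), with a median log2 fold change of 0.15. This count was 6 to 8 over the processing alternatives and 5 with any library of the clone left out. *SRSF7*, a protein that shuttles between nucleus and cytoplasm and aids mRNA export, was at 60.6 and 63.7 TPM in the parental libraries and 79.9 and 82.2 TPM in the resistant libraries of C17.2. Both resistant libraries were above both parental libraries, with a log2 fold change of 0.38 (SE 0.045; adjusted p = 0.00200, limma, Benjamini-Hochberg). In C3.2 its libraries overlapped in level, at 88.1 and 85.0 TPM in parental and 88.5 and 85.9 TPM in resistant cells (log2 fold change 0.011, adjusted p = 0.911, limma).

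*SRSF1*, the founding SR protein with roles in both constitutive and alternative splicing, was at 148 and 151 TPM in the parental libraries and 183 and 187 TPM in the resistant libraries of C17.2. It rose by 23.8% in mean level (log2 fold change 0.31, adjusted p = 0.00288, limma, Benjamini-Hochberg), and was at 183 and 182 TPM in parental and 184 and 192 TPM in resistant cells of C3.2, which did not pass. The *SRSF1* locus overlaps 1 gene on the same strand and 1 on the opposite strand, both without a symbol. *SRSF2*, which binds exonic enhancers and is often mutated in myeloid neoplasms, was at 137 and 138 TPM in the parental libraries and 163 and 163 TPM in the resistant libraries of C17.2, a log2 fold change of 0.24 (SE 0.039; adjusted p = 0.00562, limma, Benjamini-Hochberg). The *SRSF2* locus overlaps *MFSD11* on the opposite strand, and the sources used here do not say whether strand was used in counting. In C3.2 *SRSF2* was at 188 and 195 TPM in parental and 180.4 and 176 TPM in resistant cells, lower in both resistant libraries but not past the threshold (log2 fold change -0.10, adjusted p = 0.155, limma).

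*SRSF9*, a relative of *SRSF1* with a short arginine- and serine-rich domain, was at 63.6 and 59.7 TPM in the parental libraries and 73.9 and 77.3 TPM in the resistant libraries of C17.2, which did not overlap (log2 fold change 0.29, adjusted p = 0.00616, limma, Benjamini-Hochberg). Its levels in C3.2, 88.1 and 90.2 TPM in parental and 89.5 and 88.7 TPM in resistant cells, overlapped. *SRSF9* overlaps *GATC* and *DYNLL1* on the opposite strand and *NRAV* on the same strand in the annotation. *SRSF4* also rose in C17.2 (log2 fold change 0.28, adjusted p = 0.0259, limma), but not when any one library of the clone was left out (adjusted p of 0.0593 to 0.134).

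The TRA2 genes, homologs of the fly sex determination gene *transformer 2*, each passed in 1 clone, *TRA2B* in C17.2 and *TRA2A* in C3.2. *TRA2B* was at 119.7 and 119 TPM in the parental libraries and 148 and 147 TPM in the resistant libraries of C17.2, higher in both resistant libraries, with a log2 fold change of 0.30 (SE 0.037; adjusted p = 0.00208, limma, Benjamini-Hochberg). In C3.2 it stayed between 132 and 136 TPM. *TRA2A*, in contrast, was at 47.6 and 45.2 TPM in parental and 54.9 and 55.7 TPM in resistant cells of C3.2 and passed there (log2 fold change 0.25, adjusted p = 0.0177, limma, Benjamini-Hochberg), whereas its values of 51.5 and 51.5 TPM in parental and 54.5 and 55.9 TPM in resistant cells of C17.2 did not (log2 fold change 0.098, adjusted p = 0.141). The interaction term did not pass for *TRA2A* (adjusted p = 0.174). The *TRA2A* call kept its side of the threshold when resistant replicate 1 was left out and lost it without each of the other libraries of C3.2 (adjusted p of 0.0558 to 0.0816).

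*SRSF11*, a protein that contacts U2AF, was the only SR member that fell in C3.2, at 104 and 105 TPM in parental and 91.3 and 82.0 TPM in resistant cells of C3.2 (log2 fold change -0.27, adjusted p = 0.0347, limma, Benjamini-Hochberg). Both resistant libraries were below both parental libraries. The call was lost under 6 of the 9 processing alternatives. In C17.2 *SRSF11* had a log2 fold change of -0.043 with a 95% interval of -0.18 to 0.095. The remaining SR members, *SRSF3*, *SRSF5*, *SRSF6*, *SRSF8* and *SRSF10*, passed in neither clone, and *SRSF3* and *SRSF5* had negative values in C3.2 of -0.25 and -0.36 with adjusted p of 0.0823 and 0.174 (limma).

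Among the 22 hnRNPs and PTBPs, 7 rose in C17.2 and none fell (10 and 0 at an unadjusted limma p under 0.05), with a median log2 fold change of 0.13. The count was 5 to 13 over the processing alternatives and 3 to 5 with a library left out (3 without parental replicate 2 or resistant replicate 2). *HNRNPAB*, a protein related to *HNRNPD* that binds AU-rich RNA, showed the largest rise of the 43 genes in C17.2. It was at 86.9 and 86.0 TPM in the parental libraries and 119.6 and 121 TPM in the resistant libraries of C17.2, a log2 fold change of 0.47 (SE 0.041; adjusted p = 0.000629, limma, Benjamini-Hochberg). The rise, 38.9% in mean level, was far larger than the gap between libraries of a group. In C3.2 *HNRNPAB* was at 118 and 116 TPM in parental and 130.3 and 123 TPM in resistant cells, which did not pass (log2 fold change 0.11, adjusted p = 0.134). *HNRNPAB* lies at chr5:178204533-178211163 (forward strand) of GRCh38 and overlaps *PHYKPL* on the opposite strand.

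*HNRNPH2*, an X-linked close relative of *HNRNPH1* that binds runs of guanines, was at 16.4 and 16.2 TPM in the parental libraries and 22.5 and 22.1 TPM in the resistant libraries of C17.2. It rose by 36.7% in mean level (log2 fold change 0.43, adjusted p = 0.00142, limma, Benjamini-Hochberg), while both resistant libraries of C3.2, at 22.7 and 21.3 TPM, were below its parental libraries at 23.6 and 24.0 TPM without passing (log2 fold change -0.11, adjusted p = 0.192). *HNRNPK*, which binds poly(C) stretches, was at 279.6 and 275 TPM in the parental libraries and 339 and 341 TPM in the resistant libraries of C17.2, a log2 fold change of 0.29 (SE 0.045; adjusted p = 0.00510, limma, Benjamini-Hochberg). Its resistant libraries in C3.2, at 336 and 317 TPM, were below its parental libraries at 354 and 344 TPM and did not pass.

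*HNRNPM*, a regulator of exon skipping that binds GU-rich RNA, was at 65.3 and 67.5 TPM in the parental libraries and 85.8 and 89.5 TPM in the resistant libraries of C17.2 (log2 fold change 0.39, adjusted p = 0.0176, limma, Benjamini-Hochberg). In C3.2 it was at 84.0 and 86.9 TPM in parental and 85.1 and 70.6 TPM in resistant cells, where resistant replicate 2 was the lowest and the groups overlapped. *HNRNPA2B1*, a relative of *HNRNPA1* with a role in RNA transport, was at 185 and 189.7 TPM in the parental libraries and 227 and 246 TPM in the resistant libraries of C17.2 (log2 fold change 0.33, adjusted p = 0.0336). In C3.2 *HNRNPA2B1* was at 263 and 253 TPM in parental and 248 and 208 TPM in resistant cells and did not pass (log2 fold change -0.19, adjusted p = 0.229), and the gene overlaps *CBX3* and *NFE2L3* on the opposite strand. The calls of *HNRNPM* and *HNRNPA2B1* in C17.2 were lost when any one library of the clone was left out (adjusted p of 0.0689 to 0.167, limma).

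*HNRNPA0*, an intronless gene for a protein that binds AU-rich elements, was at 14.4 and 13.4 TPM in the parental libraries and 17.3 and 16.9 TPM in the resistant libraries of C17.2. Both resistant libraries were above both parental libraries (log2 fold change 0.28, adjusted p = 0.0178, limma, Benjamini-Hochberg), but the call held with only 1 of the 4 libraries left out. *HNRNPL*, which binds CA repeats, rose the least of the 14 (log2 fold change 0.14, adjusted p = 0.0356, limma). The call of *HNRNPL* held under 8 of the 9 processing alternatives. With a library of C17.2 left out, its log2 fold change ranged from 0.12 to 0.16. *HNRNPH3*, a shorter member of the HNRNPH family, was at 64.9 and 65.3 TPM in the parental libraries and 71.8 and 79.3 TPM in the resistant libraries of C17.2 and did not pass (log2 fold change 0.21, adjusted p = 0.0576), although both resistant libraries were the higher. In C3.2 *HNRNPA0* was at 22.0 and 21.3 TPM in parental and 21.2 and 19.5 TPM in resistant cells and *HNRNPH3* at 71.2 and 66.2 TPM in parental and 61.9 and 58.2 TPM in resistant cells. Both genes were lower in both resistant libraries there without passing. *PBLD* and *RUFY2* overlap *HNRNPH3* on the opposite strand.

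In C3.2 the largest change of the 43 genes was that of *HNRNPD*, also called AUF1, which binds AU-rich elements and shortens the life of many mRNAs. *HNRNPD* was at 166 and 152 TPM in the parental libraries and 98.5 and 75.3 TPM in the resistant libraries of C3.2. Both resistant libraries were far below both parental libraries, a log2 fold change of -0.88 (SE 0.12; adjusted p = 0.00885, limma, Benjamini-Hochberg), a fall of the mean level by 45.4%. In C17.2 *HNRNPD* was at 160.5 and 158 TPM in parental and 184 and 193 TPM in resistant cells, higher in both resistant libraries but not past the threshold (log2 fold change 0.24, adjusted p = 0.193). The fall in C3.2 was -0.68 without resistant replicate 2 (adjusted p = 0.0109), the lower of the pair, and lost its call without parental replicate 1 or 2 (adjusted p of 0.0858 and 0.0616, limma).

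*HNRNPD* lies at chr4:82352498-82374503 (reverse strand) of GRCh38, with the divergent transcript *HNRNPD-DT* on the opposite strand. Within 0.5 Mb on either side, 5 other protein-coding genes were tested. In C3.2 its paralog *HNRNPDL* had a log2 fold change of -0.040, *ENOPH1* of -0.054, *SEC31A* of 0.060 and *RASGEF1B* of -0.31, and none of these passed. *SCD5*, a stearoyl-CoA desaturase gene, was lower by a log2 value of -0.28 (adjusted p = 0.0348, limma, Benjamini-Hochberg).

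*HNRNPA1* also fell in C3.2, at 1314 and 1256 TPM in the parental libraries and 981 and 792 TPM in the resistant libraries of C3.2. Both resistant libraries were below both parental libraries, with resistant replicate 2 the lowest (log2 fold change -0.54, adjusted p = 0.0208, limma, Benjamini-Hochberg). Without that library the log2 fold change was -0.39, and over all fits with a library of C3.2 left out it ranged from -0.70 to -0.39. The call held under 5 of the 9 processing alternatives (adjusted p of up to 0.145, limma). In C17.2 the resistant libraries were also the lower, at 948 and 968 TPM against 1084 and 1058 TPM, which did not pass (log2 fold change -0.16, adjusted p = 0.277). *HNRNPA1* has 74 listed pseudogenes that held 6.13% of the summed TPM of gene and pseudogenes, and reads shared with these near-identical copies make its level uncertain.

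*PTBP3*, the PTB paralog of blood cells, rose in C3.2, at 47.4 and 49.4 TPM in parental and 56.4 and 60.6 TPM in resistant cells of C3.2 (log2 fold change 0.27, adjusted p = 0.0224, limma, Benjamini-Hochberg). It was at 54.1 and 54.8 TPM in parental and 59.7 and 60.8 TPM in resistant cells of C17.2, which did not pass (log2 fold change 0.14, adjusted p = 0.0760). The call of *PTBP3* in C3.2 held under 8 of the 9 processing alternatives (adjusted p of up to 0.120, limma). With a library of C3.2 left out, the log2 fold change ranged from 0.21 to 0.32. The locus overlaps *RN7SL57P* and *RN7SL430P* on the same strand. *PTBP1*, the general repressor of this family, had log2 fold changes of -0.0089 and 0.0043 in C17.2 and C3.2, with 95% intervals of -0.14 to 0.12 and -0.12 to 0.13. The other 11 hnRNPs, including the abundant *HNRNPH1*, *HNRNPC* and *HNRNPU*, passed in neither clone.

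The 3 promoters below belong to *HNRNPAB* and *HNRNPH2*, which had the largest rises of the 43 genes in C17.2, and to *HNRNPD*, which had the largest fall in C3.2. Each is the 250 bases before the RefSeq start on GRCh38.p14, 5′ to 3′ on the strand of the gene, at chr5:178204283-178204532 (forward), chrX:101407972-101408221 (forward) and chr4:82373992-82374241 (reverse). That of *HNRNPD* lies inside the gene as Gencode draws it, since the first base of the gene is farther upstream there. Capitals mark matches on either strand to the CCAAT box (CCAAT), the TATA box (TATAAA), the E-box (CACGTG), the GC box (GGGCGG) and the ETS motif (CCGGAAG).
HNRNPAB: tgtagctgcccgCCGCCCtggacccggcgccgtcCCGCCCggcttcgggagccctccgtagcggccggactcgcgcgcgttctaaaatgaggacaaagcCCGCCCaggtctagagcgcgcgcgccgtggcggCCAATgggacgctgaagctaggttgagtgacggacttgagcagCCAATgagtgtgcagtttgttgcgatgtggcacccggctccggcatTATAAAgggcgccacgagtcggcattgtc
HNRNPH2: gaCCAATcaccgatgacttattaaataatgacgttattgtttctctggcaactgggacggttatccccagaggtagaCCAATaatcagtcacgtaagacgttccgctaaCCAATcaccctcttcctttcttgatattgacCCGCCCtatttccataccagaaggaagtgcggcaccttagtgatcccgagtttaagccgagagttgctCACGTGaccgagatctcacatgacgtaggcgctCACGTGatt
HNRNPD: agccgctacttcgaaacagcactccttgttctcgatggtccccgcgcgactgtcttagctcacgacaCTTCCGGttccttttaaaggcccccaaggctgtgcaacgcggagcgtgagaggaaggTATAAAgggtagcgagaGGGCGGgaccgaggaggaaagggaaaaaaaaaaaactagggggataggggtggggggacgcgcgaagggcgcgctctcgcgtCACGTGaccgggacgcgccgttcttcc
The *HNRNPAB* promoter held 2 CCAAT boxes, 3 GC boxes and a TATA box whose first base was at -29 from the start. That of *HNRNPH2* held 3 CCAAT boxes, 2 E-boxes and 1 GC box, and its GC content of 47.6% was below the median of 64.8% over the promoters of 8886 tested genes, while that of *HNRNPD* held 1 E-box, 1 GC box, 1 ETS motif and a TATA box whose first base was at -126.

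Promoters were matched for 40 of the 43 genes, all but *HNRNPA1*, *SRSF2* and *TRA2A*. A CCAAT box was present in 19 of the 40 (47.5%) against 36.2% of the 8886 promoters, a TATA box in 5 (12.5%) against 4.99%, and an E-box in 6 (15.0%) against 9.23%. A GC box was present in 65.0% against 68.1% and the ETS motif in 15.0% against 17.6%. The median GC content was 65.6% against 64.8%. No matches of different motifs overlapped in these 40 promoters, and a match is a description of the letters and not a binding site.

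*MBNL1*, the most abundant muscleblind gene in these libraries, was at 246 and 248 TPM in parental and 279.7 and 279 TPM in resistant cells of C17.2 and at 261 and 267 TPM in parental and 287 and 272 TPM in resistant cells of C3.2. The resistant libraries were above the parental ones in both clones, and the change passed in C17.2 (log2 fold change 0.18, adjusted p = 0.0254) and not in C3.2 (log2 fold change 0.083, adjusted p = 0.269, limma, Benjamini-Hochberg). The interaction term for *MBNL1* was 0.094 with a 95% interval of -0.052 to 0.24. The call in C17.2 was lost when any one library of the clone was left out (adjusted p of 0.0738 to 0.0990). The culture notes of the samples mention a virus carrying HA-tagged *MBNL1*, without saying that these cells received it, and gene-level TPM does not tell such a transcript from the endogenous one.

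*MBNL3*, a muscleblind protein known to hold back muscle differentiation, fell in C17.2 from 38.9 and 40.1 TPM to 33.9 and 33.4 TPM (log2 fold change -0.22, adjusted p = 0.0211, limma, Benjamini-Hochberg). In C3.2 it was at 36.4 and 38.4 TPM in parental and 34.4 and 36.8 TPM in resistant cells and did not pass. *MBNL2*, *CELF1* and *CELF2* passed in neither clone.

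*RBM10*, an X-linked tumor suppressor gene in lung cancer whose protein promotes exon skipping, also fell in C17.2, from 21.6 and 22.2 TPM to 19.4 and 17.9 TPM (log2 fold change -0.22, adjusted p = 0.0231, limma, Benjamini-Hochberg). The falls of *MBNL3* and *RBM10* did not pass on TPM as deposited or on TPM rescaled over protein-coding genes. That of *RBM10* also did not pass with the 4 libraries of C17.2 fitted alone. The call of *MBNL3* was also lost when any one library of C17.2 was left out (adjusted p of 0.0664 to 0.101, limma), and that of *RBM10* without parental replicate 1 or 2 or resistant replicate 2 (0.0737, 0.106 and 0.0796). In C3.2 *RBM10* was at 21.3 and 20.9 TPM in parental and 20.4 and 20.0 TPM in resistant cells and did not pass. *RBM10* overlaps *NDUFB11* on the opposite strand. *RBM5*, which the study tagged with miniAID in other SEM cells, was at 106 and 102 TPM in parental and 104 and 103 TPM in resistant cells of C17.2 and at 90.8 and 99.5 TPM in parental and 88.5 and 86.0 TPM in resistant cells of C3.2. It passed in neither clone, with log2 fold changes of -0.0064 (95% interval -0.14 to 0.12) and -0.12 (-0.25 to 0.0060). The sign of the first changed with the scaling. *RBM5* and *RBM6* overlap on the same strand, and reads in the shared stretch could be split between them.

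The changes of the 2 clones were then set against each other by the interaction term, with the change in C3.2 subtracted from that in C17.2. It passed for 12 of the 43 genes (27.9%), all with the greater value in C17.2. Of all genes tested it passed for 9.9%, with 4.91% in this direction and 4.99% in the other. At an unadjusted limma p under 0.05 it was 18 of the 43 in this direction and 1 in the other. The unadjusted share of all genes was not taken. The values of the 12 genes ranged from 0.26 for *SRSF1* to 1.11 for *HNRNPD* (adjusted p of 0.00662 to 0.0484, limma, Benjamini-Hochberg). The SR members were *SRSF1*, *SRSF2*, *SRSF7*, *SRSF9* and *TRA2B*, and the hnRNPs were *HNRNPA0*, *HNRNPAB*, *HNRNPD*, *HNRNPH2*, *HNRNPH3*, *HNRNPK* and *HNRNPM*. Of these 12, 10 had also passed in C17.2 and 1, *HNRNPD*, in C3.2, and the interaction uses the same libraries as those tests. The call of *HNRNPH2* (log2 fold change 0.54, adjusted p = 0.00662) held with each of the 8 libraries left out in turn, and the number of calls over these fits ranged from 1 to 16.

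In 11 of the 12, both parental libraries of C17.2 were below both parental libraries of C3.2, and *HNRNPD* was the exception. The mean parental level in C17.2 was from 64.4% (*HNRNPA0*) to 94.8% (*HNRNPH3*) of that in C3.2 for these 11. In resistant cells, the level in C17.2 was below that in C3.2 for 5 (*SRSF2*, *SRSF7*, *SRSF9*, *HNRNPA0* and *HNRNPAB*), overlapped for *SRSF1* and *HNRNPH2*, and was above for *TRA2B*, *HNRNPD*, *HNRNPH3*, *HNRNPK* and *HNRNPM*. For *HNRNPH2*, the resistant mean of C17.2 was 101% of that of C3.2, after a parental mean of 68.5%. These levels share libraries with the interaction and are a description of it, in which clone and a possible batch cannot be told apart. The interaction subtracts the parental level of C17.2 and adds that of C3.2. A positive value therefore favors lower parental levels in C17.2 by construction. Genes without a call went both ways, with *HNRNPL* and *PTBP1* lower and *HNRNPU* and *CELF2* higher in both C17.2 parental libraries. This order was not counted over all genes.

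**Figure D3:**
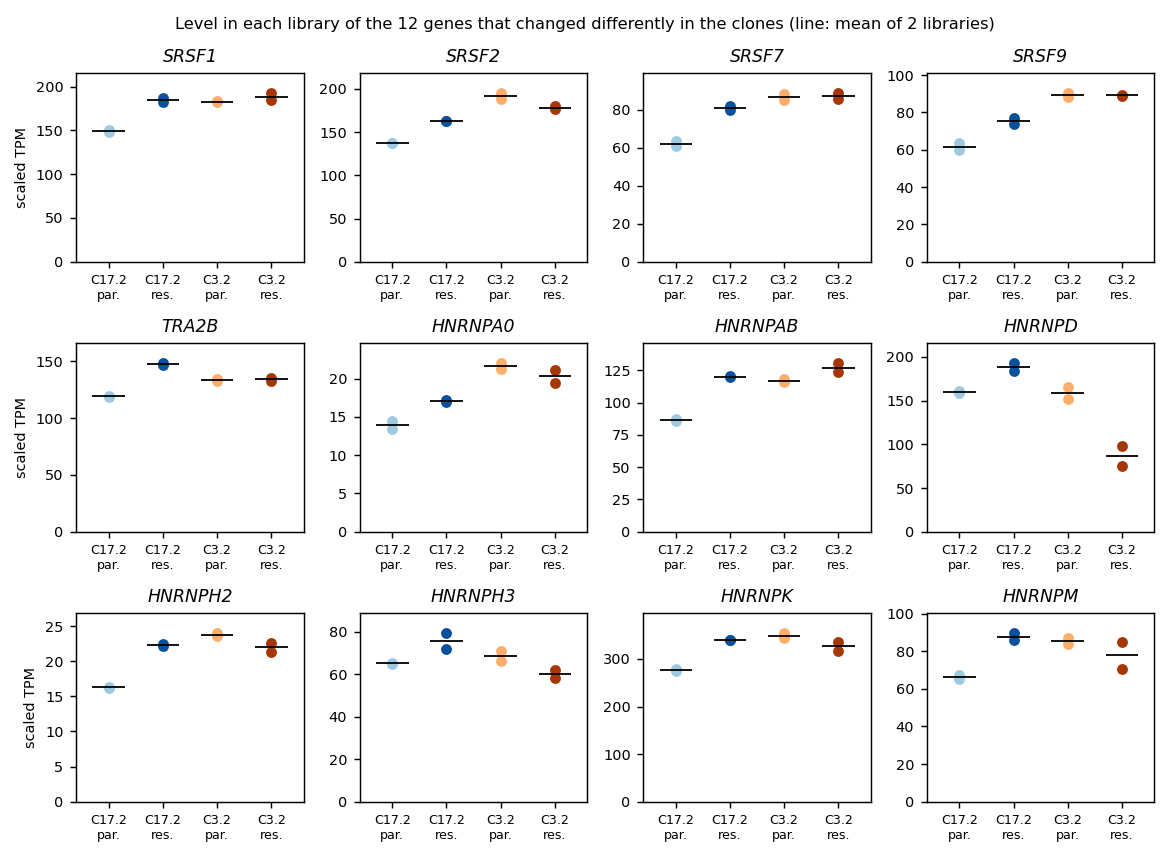
Level in every library (scaled TPM, axes from 0) of the 12 genes with an interaction past the threshold, with 2 points per group and a line at their mean, for parental (par.) and resistant (res.) cells of C17.2 (blue) and C3.2 (brown). In 11 panels the C17.2 parental points are below the C3.2 parental points, and in the panel of HNRNPD the C3.2 resistant points, at 98.5 and 75.3 TPM, are the lowest. A positive interaction favors lower parental points in C17.2 by construction.

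Paralogs with like binding preferences were set side by side as shares of their summed TPM. *HNRNPD* made up 46.2% of *HNRNPD* plus *HNRNPDL* in parental and 32.4% in resistant cells of C3.2, against 51.6% and 53.7% in C17.2. *TRA2A* made up 30.2% and 27.3% of the TRA2 pair in parental and resistant cells of C17.2, and 25.8% and 29.2% in C3.2, so that the share moved in opposite directions. For the next pairs the share moved the same way in both clones. *SRSF3* took 71.5% and 68.0% of *SRSF3* plus *SRSF7* in C17.2 and 68.1% and 64.0% in C3.2. *HNRNPA1* took 85.1% and 80.2% of *HNRNPA1* plus *HNRNPA2B1* in C17.2 and 83.3% and 79.5% in C3.2. *MBNL1* held 98.3% to 98.7% of the RNA of *MBNL1* plus *MBNL2* in the group means. These shares do not depend on the scaling between libraries, and they were not tested.

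The genes that act beside these regulators were counted in the same fit. Counts at an adjusted p are to be read against 13.4% higher and 13.9% lower of all genes in C17.2. In C3.2 these shares were 4.46% and 6.9%. They hold for the common scale and an adjusted p, and not for TPM as deposited or unadjusted counts. Of 46 proteins of the core spliceosome, 17 rose and 4 fell in C17.2, and 0 rose and 1 fell in C3.2 (2 and 11 at an unadjusted limma p under 0.05), with medians of 0.13 and -0.019. The 17 that rose were 37.0% of the list, and the count became 8 to 11 with any one library of C17.2 left out and 24 on TPM as deposited. *SNRPG*, an Sm ring protein, had the largest rise (log2 fold change 0.63, adjusted p = 0.000476, limma, Benjamini-Hochberg) and *BUD31* the largest fall in C17.2 (-0.41, adjusted p = 0.00158), while *PLRG1*, of the Prp19 complex, was the 1 that fell in C3.2 (-0.27, adjusted p = 0.0300). *SNRPG* has 20 listed pseudogenes with 32.6% of the summed TPM, so that its level is uncertain. Of 33 tested genes for other splicing regulators, 8 rose and 3 fell in C17.2, led by *KHDRBS3* (0.53, adjusted p = 0.00628), of the STAR family, and by *QKI* (-0.45, adjusted p = 0.000972), and in C3.2 0 rose and 4 fell (1 and 10 unadjusted), led by the paraspeckle protein gene *PSPC1* (-0.35, adjusted p = 0.0192). The 8 that rose in C17.2 were 24.2% of the list, and the count became 3 to 5 with any one library of the clone left out and 14 on TPM as deposited. The count of 4 lower in C3.2 became 6 without resistant replicate 1 and 0 without any one of the other libraries of the clone, and the count of 1 lower core spliceosome gene also became 6 without resistant replicate 1 and otherwise 0.

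None of 9 genes for the kinases and import factors of SR proteins passed in either clone (limma, Benjamini-Hochberg), and at an unadjusted p under 0.05 it was 1 higher in C17.2 and 2 lower in C3.2. In C17.2, 2 of them were higher on TPM as deposited, and 1 was higher on TPM rescaled over protein-coding genes, under quantile normalization and with the filter set in 2 libraries. In C3.2, 1 was lower without resistant replicate 1. The interaction term passed for 1 of the 9, *PRPF4B*, a kinase of the spliceosome (0.43, adjusted p = 0.0277), which was named after its values were seen, and for 0 of the 9 without the intensity trend. Of 15 genes of the exon junction complex and nonsense-mediated decay, 3 rose in C17.2 and 1 in C3.2, and none fell. The share called in C17.2 was 20.0%, all higher, against 13.4% of all genes higher and 27.3% called in either direction. The count of 3 became 6 on TPM as deposited, 1 without a filter or with the libraries of the clone alone, and 0 without the intensity trend. With a library left out it became 1 (without resistant replicate 1) or 0, and the 1 in C3.2 was also lost without a filter, with the clone alone and without any one library other than resistant replicate 1. *EIF4A3*, the helicase that anchors the exon junction complex, had the largest rise of this list in both clones, at log2 fold changes of 0.21 and 0.30 (adjusted p = 0.0401 and 0.0262). The rise of *EIF4A3* in C17.2 did not pass with any one library left out, and neither did the fall of *PLRG1* in C3.2. On TPM as deposited none of the other regulators or core spliceosome genes passed in C3.2.

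**Figure D4:**
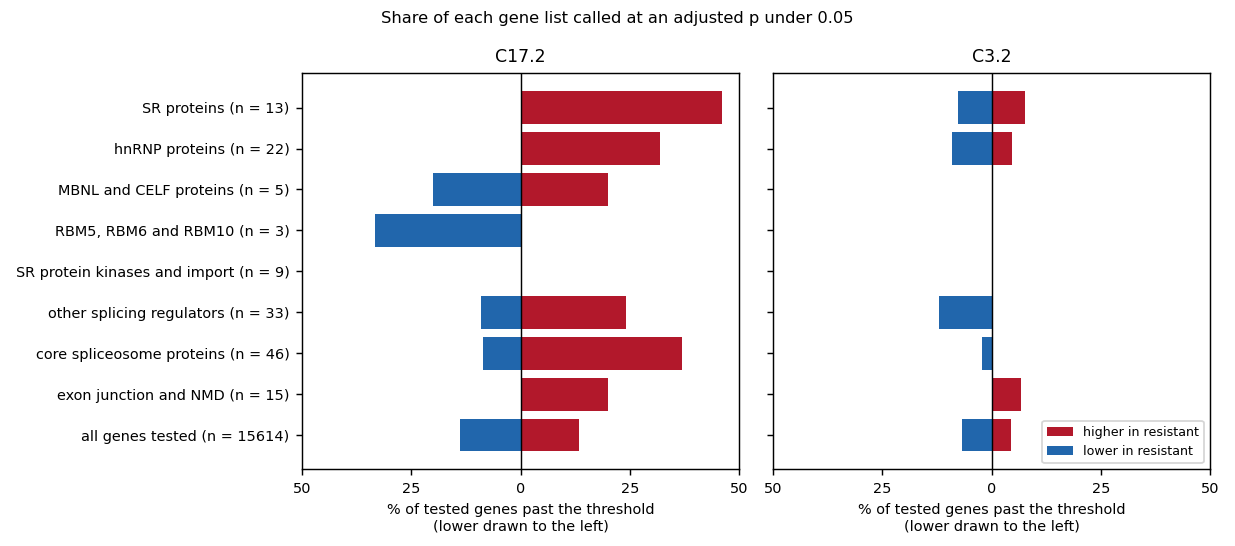
Percentage of the tested genes of each list of splicing genes, without the lists of cell type markers, that passed the threshold (limma, adjusted p under 0.05) as higher (red, to the right) or lower (blue, to the left) in resistant cells, for C17.2 and C3.2, with the number of tested genes per list. In C17.2, 46.2% of SR proteins and 31.8% of hnRNPs were higher against 13.4% of all genes, and in C3.2 the longest bar drawn, other splicing regulators that were lower, stood at 12.1%.

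The loci of the 43 genes were also described. A transcript labeled as subject to nonsense-mediated decay is annotated in Gencode 44 for 32 of the 43 genes (74.4%), against 5553 of 11189 tested protein-coding genes (49.6%). All 13 SR members have one, and *HNRNPA2B1* has 35, the most of the 43 genes, followed by *HNRNPA1* with 18. Among the 8 genes whose rise in C17.2 passed under every alternative and with each library left out, *SRSF1*, *SRSF2*, *SRSF7*, *SRSF9*, *TRA2B* and *HNRNPK* have such a transcript, and *HNRNPAB* and *HNRNPH2* have none. Gene-level TPM sums these transcripts with the coding ones. The shares of 74.4% and 49.6% were not matched for the number of annotated transcripts. This number was 84 for *HNRNPA1* and 1 for *HNRNPH2*. Another gene with at least 1 TPM overlaps 18 of the 43 loci, and 18 have listed pseudogenes, which exceeded 5% of the summed TPM for *HNRNPA1* (6.13%), *HNRNPA3* (10.7%) and *HNRNPU* (5.17%). The share of all genes with such an overlap or with pseudogenes was not taken.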

How the data were processed

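Total RNA of 2 parental and 2 resistant samples of each of C17.2 and C3.2 had been depleted of ribosomal RNA and sequenced (paired-end by the methods, single-end by the sample labels). The authors used TrimGalore 0.6.3, STAR 2.7.9a on GRCh38 and RSEM 1.3.1 with the Gencode 31 annotation. The deposited TPM are given for each gene in each library, unscaled across libraries and without read counts or depth.

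Genes under 1 TPM in every library were dropped. A library's factor was its average log2 ratio to the mean of the libraries, leaving out 30% of the ratios and 5% of the means at either end. Log2(scaled TPM + 1) was fitted by limma 3.58.1 (R 4.3.3; lmFit, contrasts.fit, eBayes with an intensity trend) in 1 model of the 4 groups, with two-sided p-values adjusted by the Benjamini-Hochberg method over all genes tested and a threshold of 0.05. Fold changes on this scale understate those of low genes. The study's limma-voom fit needs counts and was not repeated. An exact permutation test of 2 against 2 libraries cannot go below p = 0.333. The members and gene lists were chosen with earlier results of these data known. Values per library are given for genes past the interaction test, for up to 6 genes with the largest rise and 6 with the largest fall per clone among those past the threshold without overlap, and for *MBNL1* and *RBM5*. Of each other list, the gene with the largest rise and that with the largest fall past the threshold in each clone are named. 1 of 108 listed names, *MATR3*, has more than 1 identifier and was left out of counts. Gene positions, joined through the gene identifier, came from Gencode 44 (GRCh38), and promoters from RefSeq on GRCh38.p14. The closing section gives the effect of other scalings, pseudocounts, filters and models and of leaving out libraries. Tables and plots were made in Python 3.11.15 with pandas 2.3.3 and matplotlib 3.10.9. 1 further marker of B-cell precursor leukemia is not reported here. The other data of the study were not analysed here.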

Additional observations from a re-analysis of the deposited data

Results flagged for a closer look

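The change between parental and resistant cells differed between the clones, by the interaction term of limma with Benjamini-Hochberg adjustment, for 12 of the 43 genes. In each the change in C3.2 was subtracted from that in C17.2, and the value was positive. Among SR proteins the difference on the log2 scale was 0.26 for *SRSF1*, 0.34 for *SRSF2*, 0.37 for *SRSF7*, 0.29 for *SRSF9* and 0.30 for *TRA2B* (adjusted p of 0.0154 to 0.0451). Among hnRNPs it was 0.37 for *HNRNPA0*, 0.35 for *HNRNPAB*, 1.11 for *HNRNPD*, 0.54 for *HNRNPH2*, 0.40 for *HNRNPH3*, 0.39 for *HNRNPK* and 0.53 for *HNRNPM* (adjusted p of 0.00662 to 0.0484). In 11 of the 12 genes the parental libraries of C17.2 started below those of C3.2, and *HNRNPD* was the exception. A positive value favors this order by construction, because the parental level of C17.2 is subtracted within it. Whether the parental level or a possible batch had a part in these differences was not tested. With 2 libraries per group no library could be tested as standing apart from its group.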

How the results depend on the processing

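The 16 calls in C17.2, the 5 in C3.2 and the 12 of the interaction kept their direction under all alternatives. Of these, 11, 0 and 5 stayed past the threshold under every processing alternative, and 8, 0 and 1 (*HNRNPH2*) with each library left out. The 8 in C17.2 were *SRSF1*, *SRSF2*, *SRSF7*, *SRSF9*, *TRA2B*, *HNRNPAB*, *HNRNPH2* and *HNRNPK*. TPM as deposited, which moved the median of all genes in C17.2 by 0.13, gave 23 higher and 0 lower members there, 3 changed and 1 lower member in C3.2, and 1 companion gene (of the other splicing lists) in C3.2. TPM rescaled over protein-coding genes gave 0 lower members in C17.2 and 8 changed with 6 higher in C3.2. Quantile normalization gave 1 lower member in C3.2 and 7 in the interaction, all higher. Without a filter, 3 members changed and 1 was lower in C3.2, with 3 companion genes. With the 4 libraries of a clone alone, 1 member was lower in C17.2, and in C3.2 0 changed, 0 were higher and 0 lower, with 0 companion genes. Without the intensity trend the interaction held 6 members, all higher, and 7 companion genes against 14, and 2 companion genes passed in C3.2 against 6. Leaving out each library in turn gave 8 to 11 members in C17.2 (8 to 10 higher, 0 to 1 lower), 0 to 9 in C3.2 (0 to 2 higher, 0 to 7 lower) and 1 to 16 in the interaction, all higher. The count of 0 in C3.2 came without parental replicate 1 or 2 and that of 9 without resistant replicate 1. In C17.2 the count was 9 without parental replicate 1 and 8 without parental replicate 2 or resistant replicate 2. The interaction gave 1 without C17.2 parental replicate 1 or C3.2 parental replicate 2, 2 without C17.2 parental replicate 2 or C3.2 parental replicate 1, and 3 and 5 without C17.2 resistant replicates 2 and 1. A lone library left in a group was assumed to vary like the other groups. The cause of these differences was not tested, beyond the fewer samples or the greater number of genes that some alternatives hold by construction. *RBM5* in C17.2, at -0.0064, changed sign to 0.15 on TPM as deposited, 0.078 on protein-coding TPM, 0.015 under quantile normalization, 0.010 without a filter, and ranged from -0.030 to 0.018 with a library left out (0.0026 without resistant replicate 2). No paired analysis was possible because the library numbers of parental and resistant samples of a clone are not shared. TPM hold no depth, so that the counting error behind any member is unknown.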
